A study of Capra hircus with 12 samples.

Results

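DNA replication genes encode the proteins that license origins, unwind the double helix, copy it, join its pieces and supply its nucleotides. The 43 members were chosen by name for these roles, and all 43 of them were found among the 28910 genes of each count table. They were sorted into 7 role groups: the helicase (10 genes), origin recognition and licensing (7), the sliding clamp with its loader and the single-strand binding protein RPA (9), polymerases and primase (7), Okazaki fragment joining (2), nucleotide supply (3), and S phase entry and chromatin (5). All 43 had enough counts to be tested in each of the 5 comparisons.

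The study asked whether the enzyme LOXL2, a lysyl oxidase that crosslinks matrix collagen, protects cartilage of the jaw joint from inflammatory damage. RNA was sequenced from cultured cells of the goat temporomandibular condyle, taken from its superficial layer (SLC) and its middle layer (MLC). The cells came from young female goats obtained at an abattoir, had been frozen, and were passaged before use. The layers were separated and digested apart, and the passage at which each was used is not given. A difference between the layers therefore cannot be told apart from one between their cultures or passages.

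All 12 libraries analysed here came from cells that received the cytokine IL-1β. In each layer 3 libraries came from cells given IL-1β alone and 3 from cells that had also been given an adenovirus carrying LOXL2 overnight before the cytokine. These are called the IL-1β libraries and the LOXL2 libraries. The flow cytometry methods describe an empty-virus control for goat joint cells, but the culture methods do not name one for the sequenced cells. Whether the cells without LOXL2 carried an empty virus is therefore not known here, and an effect of the virus itself was not tested. Cells given vehicle were not analysed here. Total counts ran from 18751323 to 22123593 in the SLC IL-1β libraries, from 21080134 to 28931652 in the SLC LOXL2 libraries, from 14158607 to 15330697 in the MLC IL-1β libraries and from 14188227 to 19459045 in the MLC LOXL2 libraries. Levels are given as CPM, the counts scaled to a common library size, on one scale for all 12 libraries, in the order of replicates 1, 2 and 3, which have no order of their own.

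LOXL2 itself was read in every library as a check of the labels. It stood at 618, 618 and 637 CPM in the SLC IL-1β libraries and at 462, 549 and 565 CPM in the SLC LOXL2 libraries. In the MLC it stood at 765, 871 and 814 CPM in the IL-1β libraries and at 815, 788 and 747 CPM in the LOXL2 libraries. The SLC LOXL2 libraries were all below the SLC IL-1β libraries and the MLC groups overlapped, so the counts of this gene do not show the treatment, and the LOXL2 libraries are named by their labels throughout. Whether transcripts of the delivered construct were counted under the goat gene was not tested.

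Some libraries stood apart from their groups. SLC LOXL2 replicate 1 correlated across genes with the other libraries of its group at a Spearman rho of 0.959 to 0.981 and with the SLC IL-1β libraries at 0.990 to 0.994. MLC LOXL2 replicate 1 likewise had a rho of 0.986 to 0.991 within its group and of 0.993 to 0.995 with the MLC IL-1β libraries. The spread of counts between pairs of libraries, as chi-squared per degree of freedom, was 29.2 to 159 among the SLC LOXL2 libraries, 5.81 to 33.9 among the MLC LOXL2 libraries and 2.23 to 9.37 within the IL-1β groups. In the MLC IL-1β group, replicate 2 had the lowest level of 38 of the 43 members, where 38.8% of all genes were lowest in that library, and replicate 1 the highest level of 32, where 33.9% of all genes were highest. SLC IL-1β replicate 1 was lowest for 27 members (32.0% of all genes) and replicate 2 highest for 24 (32.5%). Among the SLC LOXL2 libraries replicate 2 was lowest for 23 (40.1%) and replicate 1 highest for 25 (42.9%), and among the MLC LOXL2 libraries replicate 2 was lowest for 19 (26.5%) and replicate 3 highest for 26 (38.6%).

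Marker lists described which cells the libraries held. Fibroblast markers summed to between 65784 and 81285 CPM, led by COL1A1 at 30491 to 38166 CPM. Chondrocyte markers summed to 757 to 1430.3 CPM in the SLC and to 1499.9 to 1916 CPM in the MLC, led by COL11A1. COL2A1 was at 0 in 5 of the SLC libraries and at 10.4 to 20.7 CPM in the MLC. Endothelial markers summed to 2.94 to 5.21 CPM, with EMCN at 0 in all 12 libraries, and leukocyte markers summed to 58.3 to 142 CPM, of which CD14 made up 47.6 to 132. Smooth muscle markers, led by ACTA2, summed to 1500.5 to 1931 CPM in the SLC IL-1β libraries, 1818 to 2142 CPM in the SLC LOXL2 libraries, 932 to 1041 CPM in the MLC IL-1β libraries and 1204 to 1560.3 CPM in the MLC LOXL2 libraries. Osteoblast markers summed to 41.2 to 56.5 CPM in the SLC, where RUNX2 was highest, and 124 to 130.4 CPM in the MLC, where SPP1 was. Between the layers, 7 of the 9 tested chondrocyte markers were higher in the MLC both with IL-1β and with LOXL2 (quasi-likelihood test of edgeR, p adjusted after Benjamini and Hochberg). Over all genes tested, 24.0% were called higher and 22.6% lower with IL-1β alone, and 9.17% and 6.86% with LOXL2. For LOXL2 within the MLC these shares were 9.88% and 11.7%. Of the smooth muscle markers, 4 of the 6 tested were lower and 1 was higher in the MLC with IL-1β alone, 2 of 6 were lower and 1 was higher with LOXL2, and within the MLC 3 of 5 were higher with LOXL2. Fibroblast markers went both ways, with 5 higher and 4 lower of 12 in the MLC with IL-1β alone, 4 higher and 2 lower of 12 with LOXL2, and 1 higher and 3 lower of 11 for LOXL2 within the MLC. Of the osteoblast markers, 1 was higher and 2 were lower of 4 with IL-1β alone, and 1 was higher of 5 with LOXL2. Of 2 endothelial markers tested, 1 was higher and 1 lower with IL-1β alone, and 1 was higher with LOXL2. Among leukocyte markers 1 of 4 was higher with IL-1β alone and 0 of 5 were called with LOXL2. For LOXL2 within the MLC, 1 of 9 chondrocyte markers was higher. In bulk RNA, fewer cells of a type and less RNA per cell cannot be told apart, and the same holds for more cells in S phase against more transcripts in each such cell.

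Before S phase the origin recognition complex, CDC6 and CDT1 load the ring of MCM2 to MCM7 on DNA, and CDC45 and the GINS proteins join it to form the active helicase. Behind the fork, polymerases copy each strand while the clamp PCNA holds them on the template and ribonucleotide reductase with thymidylate synthase keeps up the deoxynucleotide pool. Transcripts of most of these genes come and go with the division cycle, driven by E2F factors, so their levels in a bulk culture follow the share of cycling cells as well as the rate of transcription.

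The members were first read together. Each member was set to its mean in the SLC IL-1β libraries, and the median of these ratios was 0.935, 1.05 and 1.03 in the SLC IL-1β libraries and 1.04, 0.937 and 0.993 in the SLC LOXL2 libraries. It was 2.32, 1.82 and 2.16 in the MLC IL-1β libraries and 1.98, 2.01 and 2.30 in the MLC LOXL2 libraries. All 6 MLC libraries lay above all 6 SLC libraries, and within each layer the treatment groups overlapped. Summed over the members, the level was 942, 1031 and 1016 CPM in the SLC IL-1β libraries, 1055, 983 and 1002 CPM in the SLC LOXL2 libraries, 2039, 1606 and 1942 CPM in the MLC IL-1β libraries and 1814, 1753 and 1947 CPM in the MLC LOXL2 libraries.

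**Figure D1:**
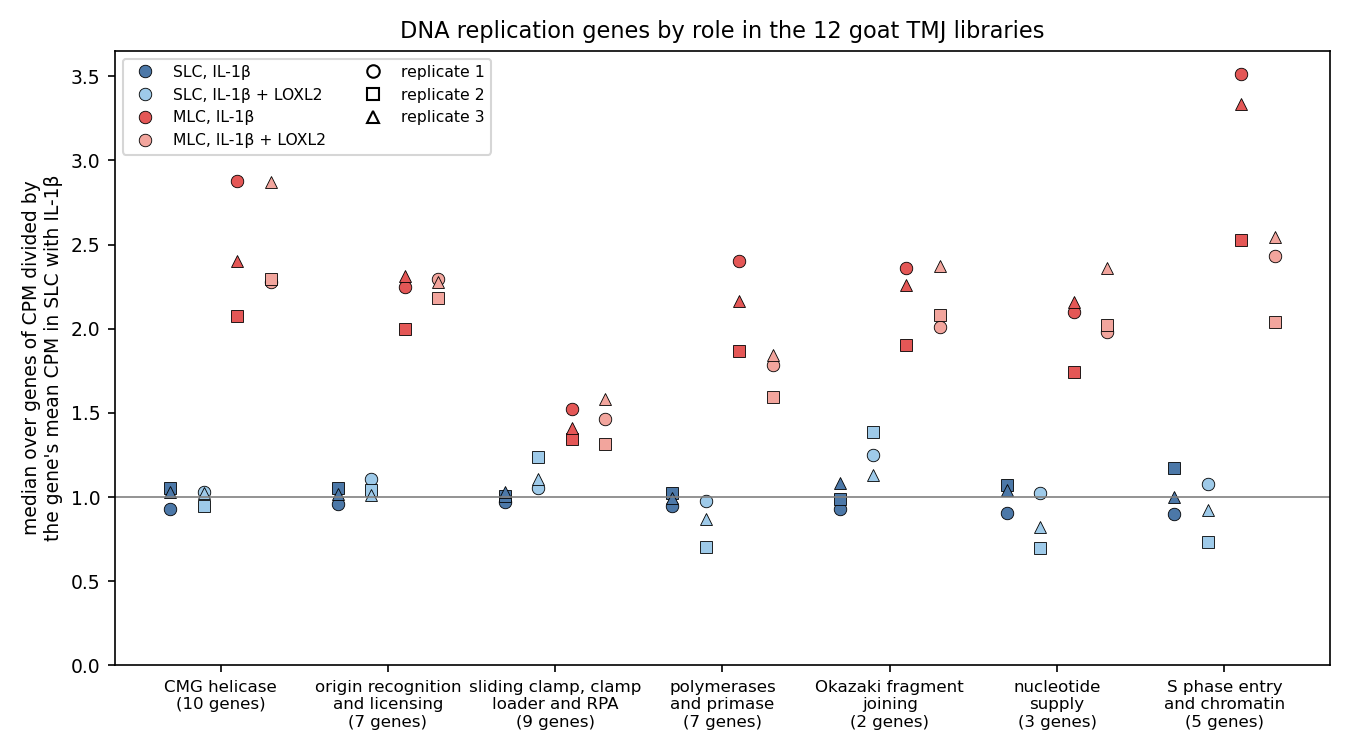
Median ratio of the members of each role group to their own mean in the SLC IL-1β libraries (vertical axis, linear scale), with 1 point for each of the 12 libraries. In each of the 7 role groups the 6 MLC libraries lie above the 6 SLC libraries, from 1.32 to 1.58 for the clamp, loader and RPA group and from 2.04 to 3.51 for S phase entry and chromatin.

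The difference between the layers was tested first in cells given IL-1β alone. Of the 43 members, 40 were higher and 1 was lower in the MLC (quasi-likelihood test of edgeR, p adjusted after Benjamini and Hochberg), where 46.6% of the 14039 genes tested were called, 24.0% higher and 22.6% lower. The members' median log2 fold change was 1.08, beside -0.01 over all genes. The groups did not overlap for 39 members that were higher and 1 that was lower, where 26.9% and 28.8% of all genes did so. ORC2 and POLD3 were the members not called. DESeq2 called 39 members (without RFC1 and RFC5), all higher, beside 41.3% of genes, 21.7% higher and 19.6% lower. A fit of edgeR to all 12 libraries called 37 (without RFC1, RFC3, RFC5 and POLA1), all higher, beside 25.9% of genes, 14.3% higher and 11.5% lower. Leaving out each library in turn gave 38 to 40 members, beside 5183 to 6396 genes.

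With LOXL2, 30 of the 43 members were higher in the MLC and 0 were lower by the same edgeR test, where 16.0% of the 14101 genes tested were called, 9.17% higher and 6.86% lower. At an unadjusted p under 0.05 the count was 35 members, all of them higher, beside 4183 genes. The members' median log2 fold change was 1.00, beside -0.03 over all genes, and 35 members had non-overlapping groups with the MLC higher and 0 with the MLC lower, where 17.3% and 17.8% of all genes did so. DESeq2 called 33 members (with MCM10, PRIM1 and RPA2 added), all higher, beside 20.5% of genes, 11.2% higher and 9.21% lower, and the fit to all 12 libraries called 34, all higher, beside 29.1%. With the replicate number as a block, edgeR called 3881 genes in place of 2261, and 36 members, adding MCM10 (adjusted p 0.00323), RPA1 (adjusted p 0.0263), RPA2 (adjusted p 0.0349), RPA3 (adjusted p 0.0451), POLA1 (adjusted p 0.0232) and PRIM1 (adjusted p 0.00333). The count of genes moved with single libraries, to 4430 without SLC LOXL2 replicate 1, 1019 without SLC LOXL2 replicate 3, and 1292, 1005 and 1075 without MLC LOXL2 replicates 1, 2 and 3. The members called were then 35 (32.1% of genes), 20, 23 (9.31% of genes), 21 and 21, all of them higher. Leaving out the first LOXL2 replicate of both layers, a choice made after seeing the data, gave 33 members and 30.1% of genes. All 30 members called with LOXL2 were among the 41 called with IL-1β alone and had the same direction, which is 100% and 73.2% of the 2 lists, beside 95.9% and 32.7% for all genes tested in both. These comparisons share no library.

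**Figure D2:**
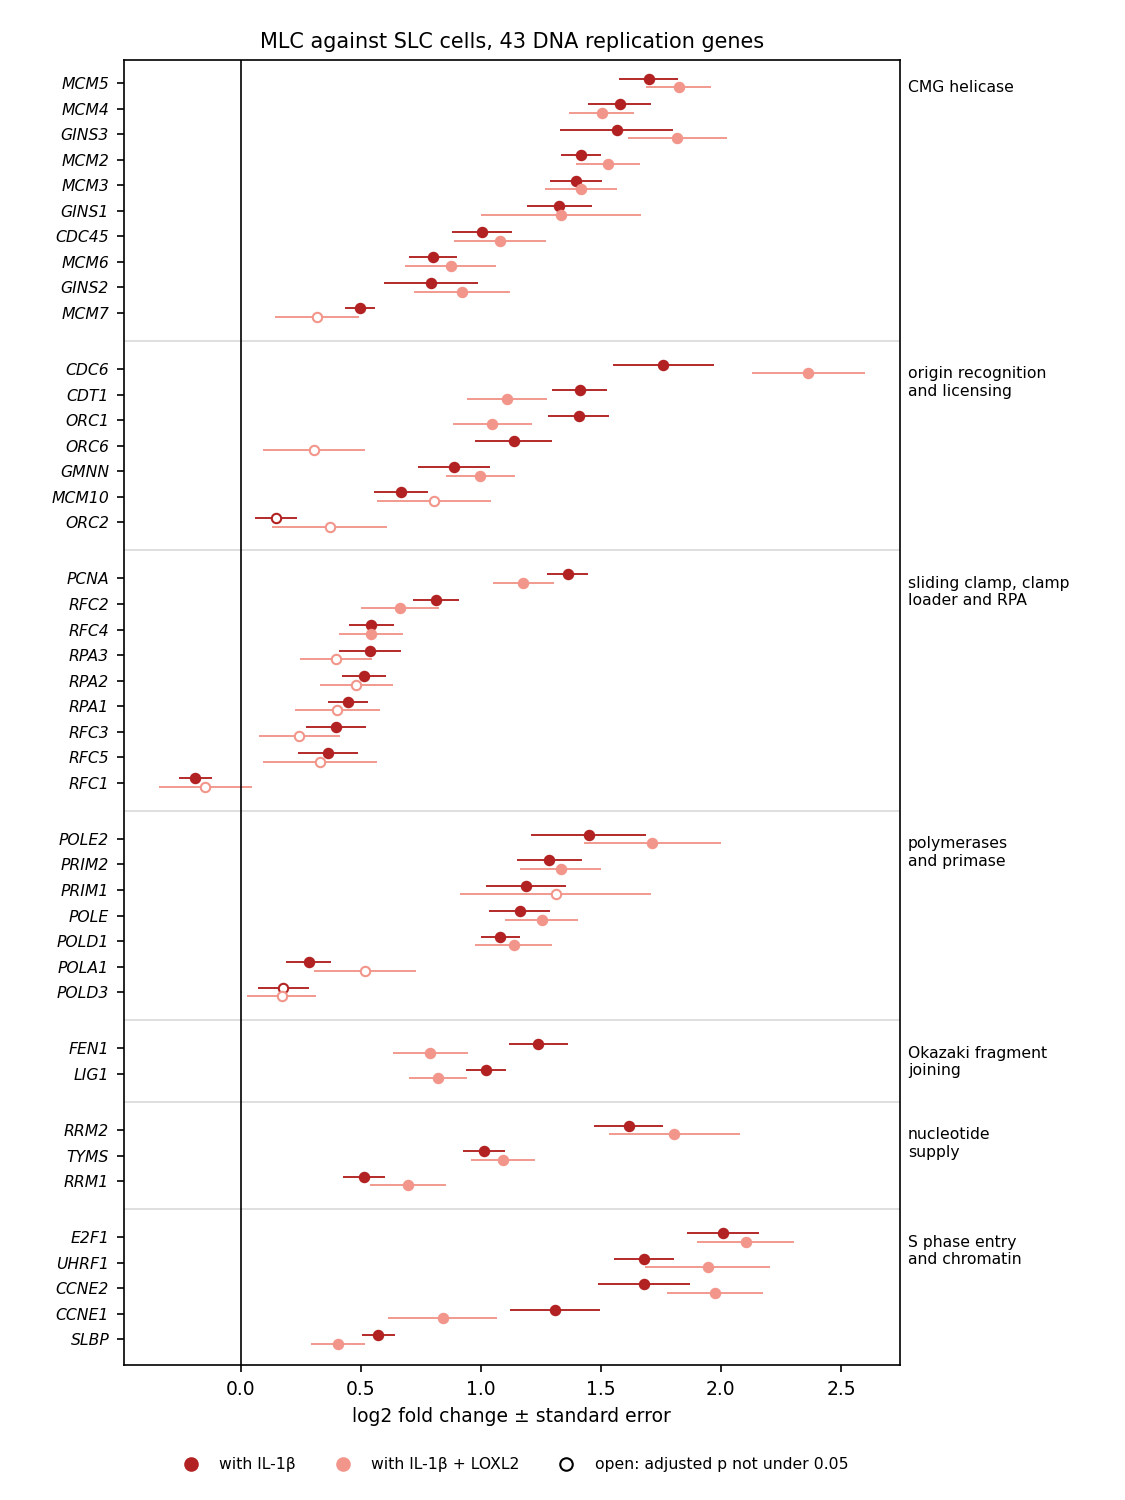
Log2 fold change of each of the 43 members between the layers (horizontal axis, MLC over SLC, bars 1 SE), in cells given IL-1β alone and in cells also given LOXL2, sorted by role group. In both conditions 42 of the members lie above 0, and RFC1 lies below it.

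Within the SLC, LOXL2 was set against IL-1β alone. By the quasi-likelihood test of edgeR, adjusted after Benjamini and Hochberg, 0 of the 43 members were called, where 0% of the 14164 genes tested were, while 11 members and 6119 genes had an unadjusted p under 0.05 and the smallest adjusted p was 0.0706. DESeq2 called 4232 genes (29.9%, with 15.9% higher and 14.0% lower) and 6 members, 3 higher (ORC6, RFC2 and RPA3) and 3 lower (MCM10, POLA1 and CCNE2), and a fit of edgeR to all 12 libraries called 5947 genes (41.2%, with 22.5% higher and 18.7% lower) and 11 members, these 6 with MCM7, CDT1 and LIG1 (higher) and CDC6 and POLE (lower). The members split into 19 higher and 24 lower, with a median log2 fold change of -0.03 beside 0.01 over all genes. This median was above 0, at 0.03, 0.0038 and 0.02, without SLC IL-1β replicate 2, SLC IL-1β replicate 3 and SLC LOXL2 replicate 2. Groups did not overlap for 6 members that were higher with LOXL2 (ORC6, CDT1, RFC2, RPA3, LIG1 and SLBP) and 5 that were lower (CDC6, MCM10, POLA1, POLE and CCNE2), where 26.1% and 23.1% of all genes did so. Without SLC LOXL2 replicate 1, edgeR called 8803 of 14031 genes (62.7%) and 20 members, 7 of them higher (31.5% of genes) and 13 lower (31.2%). Leaving out any other single library gave 0 called genes.

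Within the MLC, 5 of the 43 members passed the threshold between LOXL2 and IL-1β alone (edgeR, Benjamini-Hochberg), where 21.6% of the 13806 genes tested were called, 9.88% higher and 11.7% lower. RPA3 was higher, and MCM10, PRIM1, CCNE2 and POLA1 were lower. The median log2 fold change was -0.04 beside 0.01 over all genes, with 20 members higher and 23 lower. That median was 0.06 without MLC IL-1β replicate 1 and 0.0089 without MLC LOXL2 replicate 2. Groups did not overlap for 2 members that were higher (MCM7 and RPA3) and 5 that were lower (MCM10, RFC1, POLA1, PRIM1 and CCNE2), where 21.2% and 19.8% of all genes did so. DESeq2 called 6 members, GINS1 in addition, 1 higher and 5 lower, beside 23.8% of genes, 11.0% higher and 12.9% lower. The count of members was 0 without MLC IL-1β replicate 1, 0 without MLC IL-1β replicate 3, 0 without MLC LOXL2 replicate 2 and 0 without MLC LOXL2 replicate 3, with 0, 0, 0 and 495 genes called. It was 6 (of 836 genes) without MLC IL-1β replicate 2, and 16 (of 6613 genes, 48.5% of those tested) without MLC LOXL2 replicate 1, with 4 higher (23.1% of genes) and 12 lower (25.3%). A fit to all 12 libraries called 0 genes and had 4 members and 3723 of 14432 genes at an unadjusted p under 0.05.

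Whether the response to LOXL2 differed between the layers was tested as an interaction. It called 0 of 43 members, where 0% of the 14432 genes tested were called by edgeR, while 2 members (ORC6 and FEN1) and 326 genes had an unadjusted p under 0.05. DESeq2 also called 0 members and 0 genes. No member is therefore shown to respond differently in the 2 layers. Without SLC LOXL2 replicate 1 the interaction called 1 gene and 0 members, and 7 members and 3952 genes were under 0.05 in unadjusted p. Without the first LOXL2 replicate of both layers it called 2 genes and 0 members, with 5 members and 2929 genes under that limit. When the first LOXL2 replicate of each layer was left out, 15 members were called within both layers, in the same direction, which is 75% of the 20 called in the SLC and 93.8% of the 16 called in the MLC. For all genes these shares were 70.6% and 92.5%. In the same fits 30 of the 43 members (69.8%) had the same direction in both layers whether called or not, beside 88.5% of all genes. With all libraries of each layer 32 members (74.4%) did, beside 87.6% of all genes, and no member was called in both layers.

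**Figure D3:**
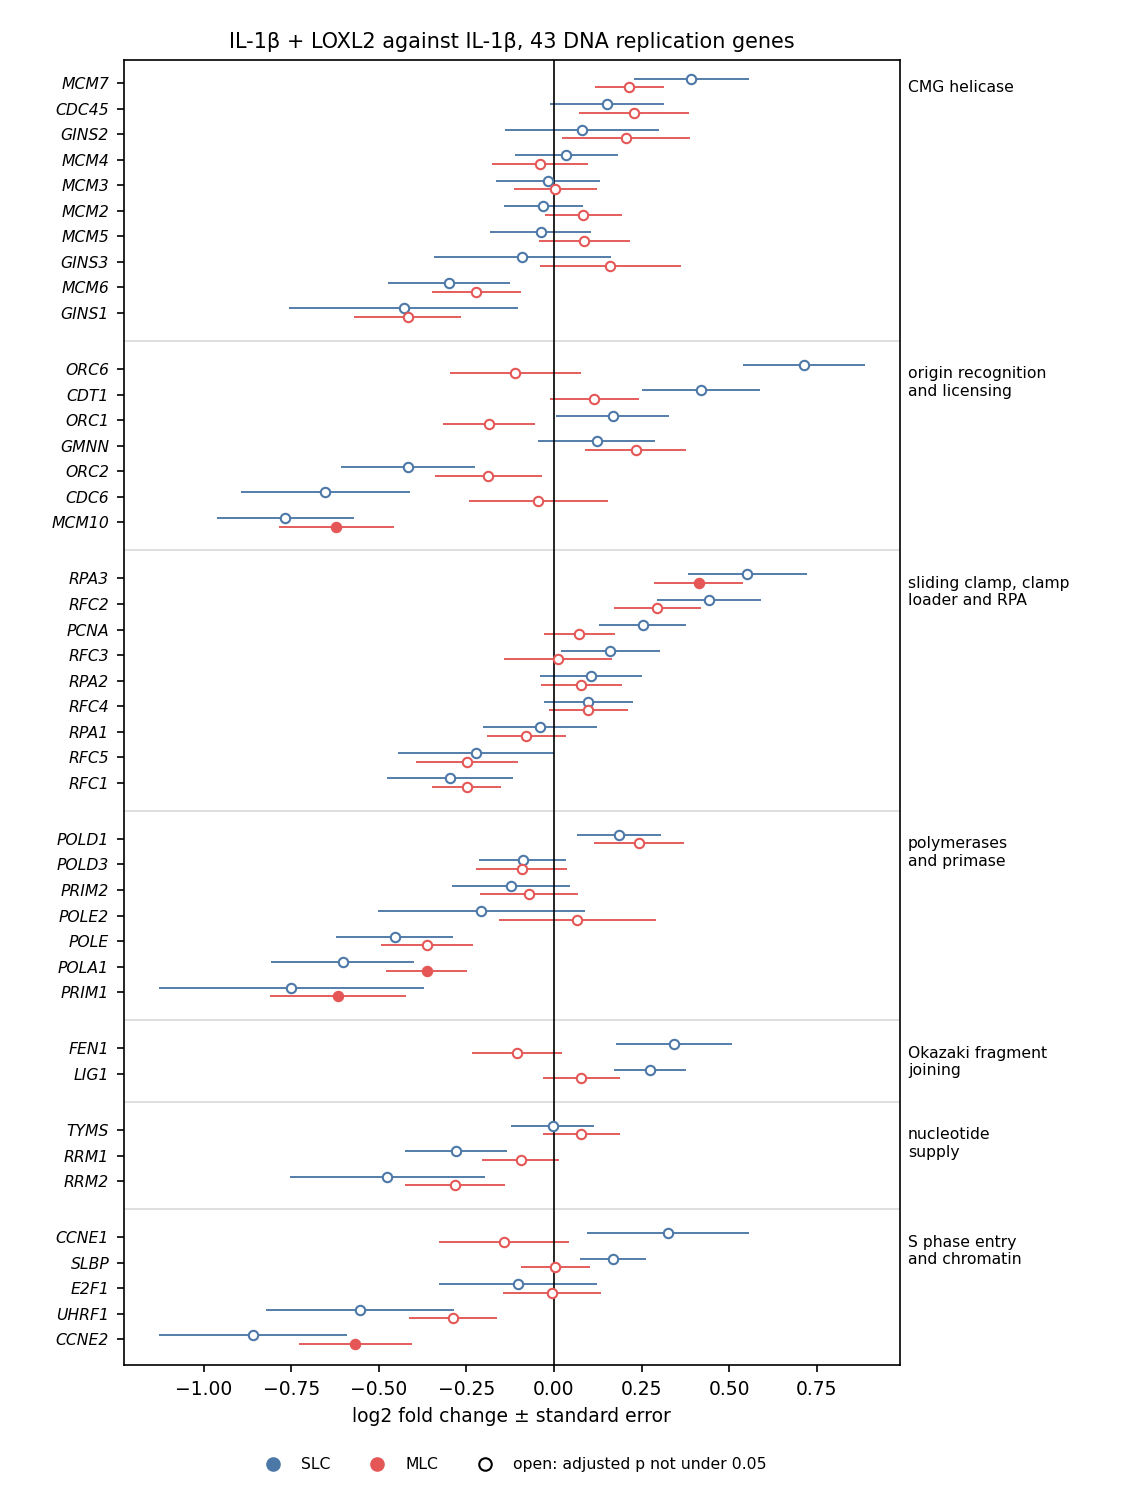
Log2 fold change of each of the 43 members between LOXL2 and IL-1β alone (horizontal axis, bars 1 SE), in the SLC and in the MLC, sorted by role group. The values lie on both sides of 0, from -0.86 for CCNE2 to 0.71 for ORC6 in the SLC and from -0.62 for MCM10 to 0.41 for RPA3 in the MLC.

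Of the 10 helicase genes, all 10 were called higher in the MLC with IL-1β alone and 9 with LOXL2, beside 24.0% and 9.17% of all genes. Differences between the layers (MLC over SLC) and effects of LOXL2 (LOXL2 over IL-1β alone) are log2 fold changes for each gene, with their SE over 3 libraries against 3. Group medians of LOXL2 effects are followed by their range over the other settings and the fits that left out a library. Medians of the helicase group between the layers were 1.36 and 1.38, and those of LOXL2 were -0.02 (-0.11 to 0.06) in the SLC and 0.08 (-0.02 to 0.15) in the MLC. MCM2, a subunit of the MCM ring on an unplaced scaffold (gene ID 102173380), had 34.6, 38.0 and 39.6 CPM in the SLC IL-1β libraries, 40.5, 35.7 and 35.3 CPM in the SLC LOXL2 libraries, 107, 86.7 and 103 CPM in the MLC IL-1β libraries and 95.7, 103 and 117 CPM in the MLC LOXL2 libraries. Every MLC library was above every SLC library, and the treatments overlapped in both layers. The layers differed by a log2 fold change of 1.42 (SE 0.08, edgeR adjusted p 6.80e-09) with IL-1β alone and 1.53 (SE 0.13, edgeR adjusted p 0.000498) with LOXL2. MCM5, another ring subunit (gene ID 102169080, chromosome 5, 72314913 to 72333035), had 20.5, 28.3 and 25.8 CPM in the SLC IL-1β libraries, 25.2, 23.0 and 25.5 CPM in the SLC LOXL2 libraries, 88.4, 65.2 and 86.9 CPM in the MLC IL-1β libraries and 80.4, 77.6 and 98.3 CPM in the MLC LOXL2 libraries. Its 6 MLC libraries were also above its 6 SLC libraries, with no separation by treatment. MCM5 had the largest layer difference of the group, 3.25-fold with IL-1β alone (log2 fold change 1.70, SE 0.12, edgeR adjusted p 5.49e-08) and 3.54-fold with LOXL2 (log2 fold change 1.82, SE 0.14, edgeR adjusted p 0.000309).

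MCM7 had the smallest layer difference of the ring subunits, with 153, 140.4 and 146 CPM in the SLC IL-1β libraries, 148, 235 and 202 CPM in the SLC LOXL2 libraries, 212, 189 and 211 CPM in the MLC IL-1β libraries and 213, 239 and 262 CPM in the MLC LOXL2 libraries. SLC LOXL2 replicates 2 and 3 reached the range of the MLC, and in the MLC the LOXL2 libraries were all above the IL-1β libraries. Its log2 fold change between the layers was 0.50 (SE 0.06, edgeR adjusted p 1.83e-05) with IL-1β alone and 0.32 (SE 0.17, edgeR adjusted p 0.277) with LOXL2, and that of LOXL2 was 0.39 (SE 0.16, edgeR adjusted p 0.111) in the SLC and 0.22 (SE 0.10, edgeR adjusted p 0.122) in the MLC. Without replicate 1 of the LOXL2 group, the effect of LOXL2 on MCM7 was 0.55 in the SLC (edgeR adjusted p 0.000422) and 0.28 in the MLC (edgeR adjusted p 0.00633). The SLC value was 0.24 (adjusted p 0.261) without SLC LOXL2 replicate 2. With LOXL2 the layer difference of MCM7 was 0.16 to 0.46 over fits without 1 library. The remaining ring subunits MCM3, MCM4 and MCM6 had layer differences of 1.40, 1.58 and 0.80 with IL-1β alone and of 1.42, 1.50 and 0.88 with LOXL2.

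CDC45 (gene ID 102189610, on an unplaced scaffold), which joins the ring when origins fire, had 9.19, 9.79 and 9.74 CPM in the SLC IL-1β libraries, 8.79, 12.8 and 10.7 CPM in the SLC LOXL2 libraries, 22.7, 15.9 and 18.5 CPM in the MLC IL-1β libraries and 20.4, 19.6 and 27.1 CPM in the MLC LOXL2 libraries. The MLC libraries were all above the SLC libraries. The difference was 1.00 (SE 0.12, edgeR adjusted p 1.25e-05) with IL-1β alone and 1.08 (SE 0.19, edgeR adjusted p 0.00811) with LOXL2, the latter becoming 1.06 (adjusted p 0.0547) without SLC LOXL2 replicate 3. GINS1, which bridges the ring and CDC45, had 8.51, 9.57 and 8.94 CPM in the SLC IL-1β libraries, 9.98, 3.69 and 6.74 CPM in the SLC LOXL2 libraries, 27.0, 17.8 and 22.6 CPM in the MLC IL-1β libraries and 18.7, 16.0 and 15.8 CPM in the MLC LOXL2 libraries. SLC LOXL2 replicate 2 was lowest, and the MLC was above the SLC in every library. GINS1 differed between the layers by 1.33 (SE 0.13, edgeR adjusted p 1.79e-06) with IL-1β alone and 1.33 (SE 0.33, edgeR adjusted p 0.0336) with LOXL2. The latter was 1.32 (adjusted p 0.123) without SLC LOXL2 replicate 3, 1.26 (adjusted p 0.112) without MLC LOXL2 replicate 1, 1.36 (adjusted p 0.108) without MLC LOXL2 replicate 2 and 1.39 (adjusted p 0.0971) without MLC LOXL2 replicate 3. Its LOXL2 effect was -0.43 (SE 0.33, edgeR adjusted p 0.329) in the SLC and -0.42 (SE 0.15, edgeR adjusted p 0.0648) in the MLC, and without the first LOXL2 replicate -0.83 (adjusted p 0.00724) and -0.51 (adjusted p 0.00813), while without MLC IL-1β replicate 2 the MLC value was -0.56 (adjusted p 0.0493). Smaller values of GINS1 were -0.12 (adjusted p 0.680) without SLC LOXL2 replicate 2, and -0.27 (adjusted p 0.276) without MLC IL-1β replicate 1. In the MLC GINS1 also passed the threshold by DESeq2 (-0.42, adjusted p 0.0453), with the replicate block (adjusted p 0.0191) and with no filter on counts (adjusted p 0.0331). Of the other GINS subunits, GINS2 differed between the layers by 0.79 and GINS3 by 1.57 with IL-1β alone.

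Of the 7 origin recognition and licensing genes, 6 were higher in the MLC with IL-1β alone and 4 with LOXL2, beside 24.0% and 9.17% of all genes. The group's median log2 fold changes were 1.14 and 1.00 between the layers, 0.12 (-0.03 to 0.20) for LOXL2 in the SLC and -0.11 (-0.22 to 0.0089) for LOXL2 in the MLC. CDC6 (gene ID 102188081, chromosome 19, 40182912 to 40193992), an ATPase that loads the MCM ring, had 2.02, 2.04 and 2.09 CPM in the SLC IL-1β libraries, 1.66, 1.08 and 1.24 CPM in the SLC LOXL2 libraries, 7.80, 4.82 and 8.09 CPM in the MLC IL-1β libraries and 7.37, 6.09 and 6.60 CPM in the MLC LOXL2 libraries. The layers were far apart in every library, and in the SLC the LOXL2 libraries were all below the IL-1β libraries. CDC6 differed between the layers by 1.76 (SE 0.21, edgeR adjusted p 9.47e-06) with IL-1β alone and by 2.36 (SE 0.24, edgeR adjusted p 0.000755) with LOXL2, which was the largest difference of the members there. Its LOXL2 effect in the SLC was -0.65 (SE 0.24, edgeR adjusted p 0.0878), and -0.85 (adjusted p 0.0164) without SLC LOXL2 replicate 1. ORC2, a core subunit of the origin recognition complex, had 20.8, 24.0 and 20.3 CPM in the SLC IL-1β libraries, 21.1, 13.3 and 15.1 CPM in the SLC LOXL2 libraries, 24.9, 22.8 and 23.8 CPM in the MLC IL-1β libraries and 26.2, 20.2 and 16.4 CPM in the MLC LOXL2 libraries. The layers overlapped, and the difference of 0.15 (SE 0.09, edgeR adjusted p 0.193) with IL-1β alone and 0.37 (SE 0.24, edgeR adjusted p 0.357) with LOXL2 did not pass the threshold. Without replicate 1 of the SLC LOXL2 group ORC2 had 0.60 between the layers (adjusted p 0.0489) and -0.64 for LOXL2 in the SLC (adjusted p 0.00106), and without MLC LOXL2 replicate 1 it had -0.40 for LOXL2 in the MLC (adjusted p 0.00884). Between the layers ORC2 had 0.22 (adjusted p 0.624) without SLC LOXL2 replicate 2 and 0.18 (adjusted p 0.727) without MLC LOXL2 replicate 1, and for LOXL2 it had -0.28 (adjusted p 0.293) without SLC LOXL2 replicate 2 in the SLC and -0.03 (adjusted p 0.899) without MLC LOXL2 replicate 3 in the MLC. With IL-1β alone its layer difference was 0.10 to 0.22 over fits without 1 library.

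ORC6 (gene ID 102173029, chromosome 18, 22261649 to 22271129), the smallest subunit of that complex, had 2.86, 3.46 and 2.88 CPM in the SLC IL-1β libraries, 4.65, 5.62 and 5.05 CPM in the SLC LOXL2 libraries, 6.88, 6.12 and 7.10 CPM in the MLC IL-1β libraries and 7.12, 4.53 and 6.88 CPM in the MLC LOXL2 libraries. In the SLC its LOXL2 libraries were all above its IL-1β libraries, and in the MLC the groups overlapped. The LOXL2 effect was 0.71 (SE 0.17, edgeR adjusted p 0.0706) in the SLC and -0.11 (SE 0.19, edgeR adjusted p 0.688) in the MLC, and the SLC value was 0.77 (adjusted p 0.00442) without SLC LOXL2 replicate 1. Between the layers ORC6 differed by 1.14 (SE 0.16, edgeR adjusted p 4.37e-05) with IL-1β alone, and with LOXL2 by 0.31 (SE 0.21, edgeR adjusted p 0.398). Leaving out each library gave ORC6 0.20 to 0.48 in that comparison, and -0.23 to 0.05 for LOXL2 in the MLC. Geminin (GMNN), which keeps CDT1 from licensing again, had 5.76, 5.94 and 7.65 CPM in the SLC IL-1β libraries, 7.22, 7.60 and 6.51 CPM in the SLC LOXL2 libraries, 12.7, 9.63 and 13.1 CPM in the MLC IL-1β libraries and 13.1, 14.1 and 14.7 CPM in the MLC LOXL2 libraries. All MLC libraries were above all SLC libraries. GMNN differed between the layers by 0.89 (SE 0.15, edgeR adjusted p 0.000239) and 1.00 (SE 0.14, edgeR adjusted p 0.00340). The licensing factor CDT1 and the ATPase ORC1 differed by 1.41 and 1.41 with IL-1β alone and by 1.11 and 1.05 with LOXL2.

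MCM10 (gene ID 102173312, chromosome 13, 27220283 to 27250449), which helps the loaded helicase to start, had 13.9, 14.4 and 12.7 CPM in the SLC IL-1β libraries, 10.5, 6.70 and 7.20 CPM in the SLC LOXL2 libraries, 25.2, 18.5 and 20.8 CPM in the MLC IL-1β libraries and 17.4, 12.3 and 12.2 CPM in the MLC LOXL2 libraries. In both layers every LOXL2 library was below every IL-1β library. MCM10 fell by 0.62 on the log2 scale with LOXL2 in the MLC, to 0.650 times its level (SE 0.16, edgeR adjusted p 0.0257). In the SLC the effect of LOXL2 was -0.77 (SE 0.20, edgeR adjusted p 0.0706), and -1.00 (adjusted p 0.000109) without SLC LOXL2 replicate 1. The MLC value for MCM10 was -0.49 (adjusted p 0.106) without MLC IL-1β replicate 1, -0.65 (adjusted p 0.0978) without MLC IL-1β replicate 3, -0.55 (adjusted p 0.115) without MLC LOXL2 replicate 2 and -0.52 (adjusted p 0.0785) without MLC LOXL2 replicate 3. Between the layers MCM10 differed by 0.67 (SE 0.11, edgeR adjusted p 0.000238) with IL-1β alone and by 0.81 (SE 0.24, edgeR adjusted p 0.0602) with LOXL2, the latter being 1.04 (adjusted p 0.00447) without SLC LOXL2 replicate 1.

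The group of clamp, clamp loader and RPA genes had the smallest layer difference of the 7 role groups. Its median log2 fold changes were 0.51 with IL-1β alone and 0.40 with LOXL2. In the first case 8 of 9 genes were called higher and 1 lower, beside 24.0% and 22.6% of all genes. In the second case 3 were called higher, beside 9.17% of all genes. The medians for LOXL2 were 0.11 (0.08 to 0.21) in the SLC and 0.07 (-0.0022 to 0.14) in the MLC. PCNA (gene ID 102172276, chromosome 13, 46864800 to 46870372), the sliding clamp, had 21.0, 23.0 and 25.8 CPM in the SLC IL-1β libraries, 28.8, 29.8 and 25.7 CPM in the SLC LOXL2 libraries, 61.3, 54.9 and 61.3 CPM in the MLC IL-1β libraries and 61.6, 56.6 and 69.1 CPM in the MLC LOXL2 libraries. The layers did not overlap. PCNA differed between them by 1.36 (SE 0.08, edgeR adjusted p 9.84e-09) with IL-1β alone and 1.18 (SE 0.13, edgeR adjusted p 0.00105) with LOXL2, and its LOXL2 effects were 0.25 (SE 0.12, edgeR adjusted p 0.155) in the SLC and 0.07 (SE 0.10, edgeR adjusted p 0.627) in the MLC. RFC1 (gene ID 102170128, chromosome 6, 59025715 to 59098480), the large subunit of the clamp loader, had 42.7, 46.4 and 42.8 CPM in the SLC IL-1β libraries, 45.8, 28.5 and 34.5 CPM in the SLC LOXL2 libraries, 38.8, 37.9 and 37.9 CPM in the MLC IL-1β libraries and 34.6, 29.5 and 32.5 CPM in the MLC LOXL2 libraries. It was the member that was lower in the MLC, at -0.19 (SE 0.07, edgeR adjusted p 0.0340) with IL-1β alone, where the groups did not overlap, and at -0.15 (SE 0.19, edgeR adjusted p 0.665) with LOXL2, where they did. The value with IL-1β alone was -0.15 (adjusted p 0.131) without SLC IL-1β replicate 2, -0.20 (adjusted p 0.0657) without MLC IL-1β replicate 1, -0.18 (adjusted p 0.0617) without MLC IL-1β replicate 2 and -0.18 (adjusted p 0.102) without MLC IL-1β replicate 3. For LOXL2, RFC1 had -0.30 (SE 0.18, edgeR adjusted p 0.227) in the SLC and -0.25 (SE 0.10, edgeR adjusted p 0.0842) in the MLC, and without replicate 1 of the LOXL2 group -0.51 (adjusted p 0.00164) and -0.31 (adjusted p 0.00770). In the SLC RFC1 had -0.15 (adjusted p 0.505) without SLC LOXL2 replicate 2.

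RPA3 (gene ID 102170292, chromosome 4, 104968311 to 104971605), the smallest subunit of the single-strand binding protein, had 8.57, 11.1 and 11.7 CPM in the SLC IL-1β libraries, 13.1, 17.1 and 16.5 CPM in the SLC LOXL2 libraries, 13.8, 14.5 and 16.8 CPM in the MLC IL-1β libraries and 18.9, 18.9 and 22.5 CPM in the MLC LOXL2 libraries. In both layers every LOXL2 library was above every IL-1β library. RPA3 rose 1.33-fold with LOXL2 in the MLC (log2 fold change 0.41, SE 0.13, edgeR adjusted p 0.0398), and its effect in the SLC was 0.55 (SE 0.17, edgeR adjusted p 0.0715), which was 0.65 (adjusted p 0.00237) without SLC LOXL2 replicate 1. The MLC value of RPA3 was 0.36 (adjusted p 0.149) without MLC IL-1β replicate 1, 0.39 (adjusted p 0.102) without MLC IL-1β replicate 2, 0.50 (adjusted p 0.0996) without MLC IL-1β replicate 3, 0.45 (adjusted p 0.114) without MLC LOXL2 replicate 2 and 0.33 (adjusted p 0.145) without MLC LOXL2 replicate 3. The MLC rise of RPA3 was not called with the trend of gene span removed (values are given with gene span below). Between the layers RPA3 differed by 0.54 (SE 0.13, edgeR adjusted p 0.00328) with IL-1β alone and by 0.40 (SE 0.15, edgeR adjusted p 0.123) with LOXL2. With IL-1β alone the other loader subunits RFC2 to RFC5 differed between the layers by 0.81, 0.40, 0.54 and 0.36, and RPA1 and RPA2 by 0.45 and 0.51. With LOXL2, RFC2 and RFC4 were the ones of these called.

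Of the 7 polymerase and primase genes, 6 were higher in the MLC with IL-1β alone and 4 with LOXL2, beside 24.0% and 9.17% of all genes. The medians of the group were 1.16 and 1.25 between the layers, and -0.21 (-0.49 to -0.05) and -0.09 (-0.17 to 0.04) for LOXL2 in the SLC and MLC. POLA1 (gene ID 102179928, chromosome X, 45135003 to 45418318), the catalytic subunit of polymerase alpha, had 26.9, 31.4 and 26.7 CPM in the SLC IL-1β libraries, 24.6, 14.5 and 17.7 CPM in the SLC LOXL2 libraries, 36.7, 29.9 and 35.9 CPM in the MLC IL-1β libraries and 29.2, 25.8 and 24.8 CPM in the MLC LOXL2 libraries. In each layer all LOXL2 libraries were below all IL-1β libraries, while the layers overlapped with IL-1β alone and not with LOXL2. POLA1 fell with LOXL2 in the MLC by 0.36 on the log2 scale (SE 0.12, edgeR adjusted p 0.0443). This value was -0.31 (adjusted p 0.169) without MLC IL-1β replicate 1, -0.45 (adjusted p 0.0509) without MLC IL-1β replicate 2, -0.33 (adjusted p 0.168) without MLC IL-1β replicate 3, -0.35 (adjusted p 0.156) without MLC LOXL2 replicate 2 and -0.31 (adjusted p 0.137) without MLC LOXL2 replicate 3. The MLC fall of POLA1 was not called with the trend of gene span removed, where it was close to 0 (values are given with gene span below). In the SLC the effect was -0.60 (SE 0.20, edgeR adjusted p 0.0781), and -0.85 (adjusted p 0.000207) without SLC LOXL2 replicate 1. Between the layers POLA1 differed by 0.28 (SE 0.09, edgeR adjusted p 0.0230) with IL-1β alone, a value that was 0.24 (adjusted p 0.0950) without SLC IL-1β replicate 1, 0.24 (adjusted p 0.0910) without SLC IL-1β replicate 3, 0.23 (adjusted p 0.0948) without MLC IL-1β replicate 1 and 0.25 (adjusted p 0.0919) without MLC IL-1β replicate 3. With LOXL2 the difference was 0.52 (SE 0.21, edgeR adjusted p 0.149), or 0.76 (adjusted p 0.00556) without SLC LOXL2 replicate 1 and 0.34 (adjusted p 0.298) without SLC LOXL2 replicate 2.

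PRIM1 (gene ID 102185537, chromosome 5, 56074351 to 56092617), the catalytic subunit of primase, had 3.58, 4.65 and 3.97 CPM in the SLC IL-1β libraries, 3.91, 1.30 and 2.20 CPM in the SLC LOXL2 libraries, 11.2, 7.75 and 8.82 CPM in the MLC IL-1β libraries and 7.27, 4.60 and 6.11 CPM in the MLC LOXL2 libraries. SLC LOXL2 replicate 1 lay within the range of the SLC IL-1β libraries and replicates 2 and 3 below it, and in the MLC all LOXL2 libraries were below the IL-1β libraries. PRIM1 fell with LOXL2 in the MLC to 0.653 times its level (log2 fold change -0.62, SE 0.19, edgeR adjusted p 0.0421). That value was -0.46 (adjusted p 0.172) without MLC IL-1β replicate 1, -0.73 (adjusted p 0.0573) without MLC IL-1β replicate 2, -0.65 (adjusted p 0.113) without MLC IL-1β replicate 3, -0.47 (adjusted p 0.167) without MLC LOXL2 replicate 2 and -0.62 (adjusted p 0.0970) without MLC LOXL2 replicate 3. In the SLC it was -0.75 (SE 0.38, edgeR adjusted p 0.162), and -1.27 (adjusted p 0.00174) without SLC LOXL2 replicate 1 and -0.43 (adjusted p 0.309) without SLC LOXL2 replicate 2. The layers differed by 1.19 (SE 0.17, edgeR adjusted p 4.14e-05) with IL-1β alone and by 1.31 (SE 0.40, edgeR adjusted p 0.0657) with LOXL2, where PRIM1 had 1.83 (adjusted p 0.00210) without SLC LOXL2 replicate 1. PRIM2, the large primase subunit, differed between the layers by 1.28 with IL-1β alone and 1.33 with LOXL2.

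POLE (gene ID 102174589, chromosome 17, 26631093 to 26687394), the leading-strand polymerase, had 11.4, 14.1 and 10.7 CPM in the SLC IL-1β libraries, 10.3, 8.49 and 8.12 CPM in the SLC LOXL2 libraries, 29.1, 22.0 and 29.6 CPM in the MLC IL-1β libraries and 21.3, 19.3 and 22.3 CPM in the MLC LOXL2 libraries. The MLC was above the SLC in every library, and in the SLC the LOXL2 libraries were below the IL-1β libraries. POLE differed between the layers by 1.16 (SE 0.13, edgeR adjusted p 4.06e-06) and 1.25 (SE 0.15, edgeR adjusted p 0.00163), and the effect of LOXL2 was -0.45 (SE 0.17, edgeR adjusted p 0.0867) in the SLC and -0.36 (SE 0.13, edgeR adjusted p 0.0634) in the MLC. The SLC effect was -0.57 (adjusted p 0.00732) without SLC LOXL2 replicate 1, and the MLC effect was -0.49 (adjusted p 0.0493) without MLC IL-1β replicate 2 and -0.38 (adjusted p 0.0209) without MLC LOXL2 replicate 1. In the MLC POLE also passed with the replicate block (adjusted p 0.0286) and with no filter on counts (adjusted p 0.0496). POLE2, its second subunit, had 2.18, 1.73 and 1.94 CPM in the SLC IL-1β libraries, 2.30, 1.15 and 1.70 CPM in the SLC LOXL2 libraries, 7.02, 3.65 and 5.17 CPM in the MLC IL-1β libraries and 5.62, 4.81 and 6.11 CPM in the MLC LOXL2 libraries. The layers did not overlap for POLE2 and differed by 1.45 (SE 0.24, edgeR adjusted p 0.00018) and 1.71 (SE 0.29, edgeR adjusted p 0.00646), the largest values of the group.

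POLD1, the lagging-strand polymerase, had 22.7, 23.6 and 23.5 CPM in the SLC IL-1β libraries, 23.4, 29.6 and 27.5 CPM in the SLC LOXL2 libraries, 54.1, 44.6 and 47.6 CPM in the MLC IL-1β libraries and 47.7, 59.3 and 66.8 CPM in the MLC LOXL2 libraries. It was higher in all MLC libraries, by 1.08 (SE 0.08, edgeR adjusted p 7.73e-08) with IL-1β alone and 1.14 (SE 0.16, edgeR adjusted p 0.00317) with LOXL2. The LOXL2 effect on POLD1 was 0.19 (SE 0.12, edgeR adjusted p 0.253) in the SLC and 0.24 (SE 0.13, edgeR adjusted p 0.179) in the MLC, and without the first LOXL2 replicate 0.27 (adjusted p 0.0335) and 0.36 (adjusted p 0.00408). Smaller values of POLD1 were 0.11 (adjusted p 0.532) without SLC LOXL2 replicate 2, and 0.13 (adjusted p 0.522) without MLC LOXL2 replicate 3. POLD3, an accessory subunit of that polymerase, had 11.8, 11.2 and 12.2 CPM in the SLC IL-1β libraries, 12.1, 10.5 and 10.9 CPM in the SLC LOXL2 libraries, 14.2, 11.9 and 13.2 CPM in the MLC IL-1β libraries and 12.8, 12.7 and 11.4 CPM in the MLC LOXL2 libraries. The POLD3 groups overlapped in each comparison, and the layers differed by 0.18 (SE 0.11, edgeR adjusted p 0.189) and 0.17 (SE 0.14, edgeR adjusted p 0.480). Without single libraries the latter was 0.11 to 0.23.

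Both genes of Okazaki fragment joining were higher in the MLC in both conditions, beside 24.0% of all genes with IL-1β alone and 9.17% with LOXL2. FEN1, which trims the flaps between fragments, had 8.10, 8.95 and 10.5 CPM in the SLC IL-1β libraries, 11.8, 13.5 and 10.1 CPM in the SLC LOXL2 libraries, 23.0, 18.4 and 23.1 CPM in the MLC IL-1β libraries and 19.2, 18.5 and 22.3 CPM in the MLC LOXL2 libraries. The lowest MLC library was above the highest SLC library. FEN1 differed between the layers by 1.24 (SE 0.12, edgeR adjusted p 1.27e-06) with IL-1β alone and 0.79 (SE 0.16, edgeR adjusted p 0.0133) with LOXL2. The latter was 0.68 (adjusted p 0.0799) without SLC LOXL2 replicate 3, 0.84 (adjusted p 0.0528) without MLC LOXL2 replicate 2 and 0.71 (adjusted p 0.0680) without MLC LOXL2 replicate 3. LIG1, the ligase that seals them, had 23.6, 24.3 and 25.0 CPM in the SLC IL-1β libraries, 29.5, 31.6 and 28.4 CPM in the SLC LOXL2 libraries, 54.1, 43.9 and 48.7 CPM in the MLC IL-1β libraries and 46.9, 52.2 and 56.2 CPM in the MLC LOXL2 libraries. Again the layers did not overlap, and in the SLC the LOXL2 libraries were all above the IL-1β libraries. LIG1 differed between the layers by 1.02 (SE 0.08, edgeR adjusted p 1.75e-07) and 0.82 (SE 0.12, edgeR adjusted p 0.00376), and the LOXL2 effects were 0.28 (SE 0.10, edgeR adjusted p 0.0898) in the SLC and 0.08 (SE 0.11, edgeR adjusted p 0.628) in the MLC. The SLC effect was 0.28 (adjusted p 0.0323) without SLC LOXL2 replicate 1. For FEN1 the LOXL2 effects were 0.34 (SE 0.17, edgeR adjusted p 0.148) and -0.10 (SE 0.13, edgeR adjusted p 0.573). Over fits without 1 library the MLC effects were -0.21 to -0.05 for FEN1 and 0.0040 to 0.16 for LIG1.

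All 3 nucleotide supply genes were higher in the MLC in both conditions, beside 24.0% of all genes with IL-1β alone and 9.17% with LOXL2. Their median log2 fold changes were 1.01 with IL-1β alone and 1.09 with LOXL2, and for LOXL2 they were -0.28 (-0.42 to -0.12) in the SLC and -0.10 (-0.20 to 0.0084) in the MLC. RRM2 (gene ID 102185371, chromosome 11, 87086303 to 87093341), the regulated subunit of ribonucleotide reductase, had 32.9, 45.5 and 43.8 CPM in the SLC IL-1β libraries, 41.7, 19.3 and 28.0 CPM in the SLC LOXL2 libraries, 144, 92.6 and 135 CPM in the MLC IL-1β libraries and 110.5, 94.0 and 102 CPM in the MLC LOXL2 libraries. The MLC was above the SLC in every library, MLC IL-1β replicate 2 was the lowest MLC library and SLC LOXL2 replicates 2 and 3 were the lowest of all. RRM2 differed between the layers 3.07-fold with IL-1β alone (log2 fold change 1.62, SE 0.14, edgeR adjusted p 4.67e-07) and 3.49-fold with LOXL2 (log2 fold change 1.81, SE 0.27, edgeR adjusted p 0.00412). The effect of LOXL2 on RRM2 was -0.48 (SE 0.28, edgeR adjusted p 0.214) in the SLC and -0.28 (SE 0.14, edgeR adjusted p 0.160) in the MLC, where it was -0.16 (not called) without MLC IL-1β replicate 1, -0.46 (adjusted p 0.0493) without MLC IL-1β replicate 2 and -0.35 (adjusted p 0.0359) without MLC LOXL2 replicate 1, and in the SLC it was -0.82 (adjusted p 0.00173) without SLC LOXL2 replicate 1 and -0.24 (adjusted p 0.441) without SLC LOXL2 replicate 2.

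RRM1, the large subunit of the same enzyme, had 46.5, 53.2 and 49.5 CPM in the SLC IL-1β libraries, 48.8, 34.7 and 41.0 CPM in the SLC LOXL2 libraries, 76.1, 60.3 and 74.8 CPM in the MLC IL-1β libraries and 70.1, 60.2 and 68.0 CPM in the MLC LOXL2 libraries. The layers did not overlap and differed by 0.51 (SE 0.09, edgeR adjusted p 0.000228) with IL-1β alone and by 0.70 (SE 0.16, edgeR adjusted p 0.0234) with LOXL2. The latter was 0.68 (adjusted p 0.106) without SLC LOXL2 replicate 3, 0.66 (adjusted p 0.0841) without MLC LOXL2 replicate 1, 0.75 (adjusted p 0.0723) without MLC LOXL2 replicate 2 and 0.68 (adjusted p 0.0931) without MLC LOXL2 replicate 3. The LOXL2 effects on RRM1 were -0.28 (SE 0.15, edgeR adjusted p 0.175) in the SLC and -0.10 (SE 0.11, edgeR adjusted p 0.550) in the MLC, and the SLC value was -0.42 (adjusted p 0.00467) without SLC LOXL2 replicate 1 and -0.16 (adjusted p 0.395) without SLC LOXL2 replicate 2. Over fits without 1 library the MLC value of RRM1 was -0.20 to -0.04. TYMS, which makes thymidylate, had 33.7, 39.0 and 38.7 CPM in the SLC IL-1β libraries, 41.0, 34.8 and 36.9 CPM in the SLC LOXL2 libraries, 78.1, 64.8 and 80.1 CPM in the MLC IL-1β libraries and 73.5, 75.0 and 87.6 CPM in the MLC LOXL2 libraries. Its treatment groups overlapped in both layers, and its layers did not. TYMS differed between the layers by 1.01 (SE 0.09, edgeR adjusted p 3.44e-07) with IL-1β alone and 1.09 (SE 0.13, edgeR adjusted p 0.00163) with LOXL2.

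Helicase, polymerase and nucleotide supply genes were then set side by side as medians of their ratios to the SLC IL-1β means. For the helicase genes the medians were 1.03, 0.949 and 1.02 in the SLC LOXL2 libraries, 2.88, 2.08 and 2.40 in the MLC IL-1β libraries and 2.28, 2.29 and 2.87 in the MLC LOXL2 libraries. Polymerase and primase genes had 0.976, 0.702 and 0.871, 2.40, 1.87 and 2.17, and 1.79, 1.60 and 1.84 in the same libraries. Nucleotide supply genes had 1.02, 0.699 and 0.824, 2.10, 1.74 and 2.16, and 1.98, 2.02 and 2.36. In the SLC, replicates 2 and 3 with LOXL2 were lower than replicate 1 in all 3 of these groups. Without SLC LOXL2 replicate 1 the median log2 fold change in the SLC was -0.09 for the helicase, -0.49 for the polymerase and -0.42 for the nucleotide supply genes. Without SLC LOXL2 replicate 2 these medians were 0.0084, -0.05 and -0.16, beside -0.02, -0.21 and -0.28 with all libraries of the SLC. Differences between the role groups were not tested.

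All 5 genes of S phase entry and chromatin were higher in the MLC in both conditions, beside 24.0% of all genes with IL-1β alone and 9.17% with LOXL2. The group had the largest median layer differences, 1.68 with IL-1β alone and 1.94 with LOXL2, and medians of -0.10 (-0.31 to 0.05) and -0.14 (-0.26 to -0.06) for LOXL2 in the SLC and MLC. E2F1 (gene ID 102173018, chromosome 13, 62710990 to 62720515), a transcription factor of many replication genes, had 5.24, 6.65 and 7.40 CPM in the SLC IL-1β libraries, 7.59, 4.73 and 5.92 CPM in the SLC LOXL2 libraries, 28.0, 20.1 and 29.0 CPM in the MLC IL-1β libraries and 24.8, 24.1 and 28.0 CPM in the MLC LOXL2 libraries. The lowest MLC library was above the highest SLC library, and the treatments overlapped. E2F1 had the largest layer difference of all members with IL-1β alone, 4.02-fold (log2 fold change 2.01, SE 0.15, edgeR adjusted p 8.31e-08), and 4.30-fold with LOXL2 (log2 fold change 2.10, SE 0.20, edgeR adjusted p 0.000674). UHRF1, which carries DNA methylation through replication, differed by 1.68 (SE 0.12, edgeR adjusted p 7.37e-08) and 1.94 (SE 0.26, edgeR adjusted p 0.00260).

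CCNE2 (gene ID 102185672, chromosome 14, 12743232 to 12755983), a cyclin that starts S phase, had 2.23, 4.03 and 3.53 CPM in the SLC IL-1β libraries, 1.98, 1.94 and 1.56 CPM in the SLC LOXL2 libraries, 11.8, 8.72 and 10.9 CPM in the MLC IL-1β libraries and 7.94, 6.65 and 6.60 CPM in the MLC LOXL2 libraries. In both layers the LOXL2 libraries were all below the IL-1β libraries, and the layers did not overlap. CCNE2 fell with LOXL2 in the MLC to 0.675 times its level (log2 fold change -0.57, SE 0.16, edgeR adjusted p 0.0306), and in the SLC the effect was -0.86 (SE 0.27, edgeR adjusted p 0.0720), which was -0.93 (adjusted p 0.0158) without SLC LOXL2 replicate 1. The MLC effect on CCNE2 was -0.47 (adjusted p 0.124) without MLC IL-1β replicate 1, -0.54 (adjusted p 0.117) without MLC IL-1β replicate 3, -0.53 (adjusted p 0.123) without MLC LOXL2 replicate 2 and -0.51 (adjusted p 0.0945) without MLC LOXL2 replicate 3. Between the layers CCNE2 differed by 1.68 (SE 0.19, edgeR adjusted p 5.63e-06) and 1.98 (SE 0.20, edgeR adjusted p 0.000823).

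CCNE1, the related cyclin, had 2.28, 3.19 and 2.14 CPM in the SLC IL-1β libraries, 3.73, 2.83 and 3.17 CPM in the SLC LOXL2 libraries, 7.02, 5.86 and 5.97 CPM in the MLC IL-1β libraries and 4.90, 5.10 and 7.10 CPM in the MLC LOXL2 libraries. All MLC libraries were above all SLC libraries. It differed by 1.31 (SE 0.19, edgeR adjusted p 5.20e-05) with IL-1β alone and by 0.84 (SE 0.23, edgeR adjusted p 0.0443) with LOXL2, and its LOXL2 effects were 0.33 (SE 0.23, edgeR adjusted p 0.297) and -0.14 (SE 0.19, edgeR adjusted p 0.599). With LOXL2 the layer difference of CCNE1 was 0.74 (adjusted p 0.103) without SLC LOXL2 replicate 2, 0.82 (adjusted p 0.162) without SLC LOXL2 replicate 3, 0.95 (adjusted p 0.0743) without MLC LOXL2 replicate 1, 0.91 (adjusted p 0.113) without MLC LOXL2 replicate 2 and 0.66 (adjusted p 0.166) without MLC LOXL2 replicate 3. Leaving out each library moved the LOXL2 effect on CCNE1 to 0.20 to 0.53 in the SLC and -0.33 to -0.04 in the MLC. SLBP, which binds histone messages, had 38.1, 38.3 and 38.1 CPM in the SLC IL-1β libraries, 41.1, 43.7 and 45.6 CPM in the SLC LOXL2 libraries, 60.6, 53.2 and 54.6 CPM in the MLC IL-1β libraries and 60.3, 56.1 and 53.1 CPM in the MLC LOXL2 libraries. The layers did not overlap, and in the SLC the LOXL2 libraries were above the IL-1β libraries. SLBP differed between the layers by 0.57 (SE 0.07, edgeR adjusted p 9.80e-06) and 0.41 (SE 0.11, edgeR adjusted p 0.0479), and the LOXL2 effect in the SLC was 0.17 (SE 0.09, edgeR adjusted p 0.198). The layer difference of SLBP with LOXL2 was 0.39 (adjusted p 0.104) without SLC LOXL2 replicate 2, 0.43 (adjusted p 0.167) without SLC LOXL2 replicate 3, 0.36 (adjusted p 0.152) without MLC LOXL2 replicate 1, 0.41 (adjusted p 0.173) without MLC LOXL2 replicate 2 and 0.46 (adjusted p 0.0996) without MLC LOXL2 replicate 3.

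Effects of LOXL2 ran with the genomic span of genes in these libraries, but not alike in all of them. A library's deviation is its log2 level of a gene less the mean over all libraries of its layer. The rho between span and this deviation was 0.237 and 0.121 in the first LOXL2 replicates of the SLC and MLC. In the IL-1β libraries it was 0.331 to 0.476. In LOXL2 replicates 2 and 3 it was -0.477 and -0.488 in the SLC and -0.431 and -0.471 in the MLC. The first LOXL2 replicates therefore had the sign of the IL-1β libraries, at smaller values. Since the deviations in a layer share a mean, the sign in a library depends in part on the other libraries. Fits of LOXL2 effects without these replicates compare libraries of opposite sign. Across the genes with a span, the Spearman rho between span and the log2 fold change of LOXL2 was -0.491 in the SLC and -0.48 in the MLC, and over the 43 members it was -0.447 and -0.339, where genes are not independent replicates. For the layer difference the members had -0.354 with IL-1β alone and -0.151 with LOXL2, where all genes had -0.118 and 0.0745. POLA1, which fell with LOXL2 in the MLC, spans 283316 bases, and RPA3, which rose, spans 3295. PRIM2, the member with the longest span at 308687 bases, had a LOXL2 effect of -0.07 in the MLC and -0.12 in the SLC. RRM2 spans 7039 bases and had -0.28 and -0.48. With the trend of span removed, POLA1 had a log2 fold change of -0.06 in the MLC (edgeR adjusted p 0.672) and RPA3 had 0.22 (edgeR adjusted p 0.202), and MCM10, PRIM1 and CCNE2 were the 3 members then called there. Over all genes 2022 of 13778 were called there. Between the layers 39 members and 6581 of 14021 genes were called with IL-1β alone, and 33 members and 3029 of 14083 genes with LOXL2, when the trend was removed.

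Other lists of the division cycle were read in the same way. Over all genes tested, edgeR called 46.6% between the layers with IL-1β alone, 16.0% with LOXL2 and 21.6% for LOXL2 within the MLC, and within the SLC 6119 of 14164 genes had an unadjusted p under 0.05. Of 48 further replication genes, 35 were higher and 3 lower in the MLC with IL-1β alone, with a median log2 fold change of 0.64. The largest were ASF1B (1.79), TK1 (1.59) and CHTF18 (1.44), and the lowest RRM2B (-0.76), POLD4 (-0.64) and SAMHD1 (-0.36). With LOXL2, 21 of them were higher in the MLC, with a median of 0.61. Within the MLC, LOXL2 went with 4 higher (POLD4 at 0.69, RNASEH2C at 0.49 and DUT at 0.45 foremost) and 5 lower genes (ATAD5 at -0.76, DCK at -0.47 and TICRR at -0.43 foremost), and within the SLC, where edgeR called no gene, 20 of the 48 had an unadjusted p under 0.05.

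Of 29 genes of S phase control, 18 were higher and 7 lower in the MLC with IL-1β alone, with a median of 0.43. E2F7 (1.85), E2F8 (1.53) and FBXO5 (1.50) were the highest, and CDKN1C (-1.62), CDKN1B (-0.70) and RBL2 (-0.44) the lowest. With LOXL2 the counts were 12 higher and 3 lower. Within the MLC, LOXL2 went with 1 higher gene, CDKN1C (0.45), and 7 lower ones, with E2F7 (-0.83), SKP2 (-0.78) and RBL1 (-0.61) lowest. Within the SLC 10 had an unadjusted p under 0.05.

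All 24 mitosis markers were higher in the MLC with IL-1β alone, at a median of 1.19, and 23 with LOXL2, at 1.48. Summed, they stood at 504, 646 and 597 CPM in the SLC IL-1β libraries, 518, 383 and 411 CPM in the SLC LOXL2 libraries, 1456, 1112 and 1392 CPM in the MLC IL-1β libraries and 1205, 1131 and 1239 CPM in the MLC LOXL2 libraries. With IL-1β alone UBE2C (1.61), AURKB (1.54) and CDCA8 (1.44) differed most between the layers and CDC25C (0.72), CENPF (1.00) and PLK1 (1.01) least. Within the MLC, LOXL2 went with 3 lower markers, CENPF (-0.61), TTK (-0.54) and MKI67 (-0.44), at a list median of -0.12. Within the SLC 16 of the 24 had an unadjusted p under 0.05, and 19 were lower with LOXL2, at a list median of -0.41. Groups there did not overlap for 10 that were lower and 2 that were higher, where 23.1% and 26.1% of all genes did so. How much of the members' layer difference goes with the share of dividing cells was not tested.

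The 3 libraries of a group carry the same treatment labels, and whether they came from separate animals or separate dishes is not given in the sources used here. Levels were not compared between members, since transcript lengths were not used. Markers named as leading a list did so by CPM, without regard to transcript length.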

How the data were processed

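RNA sequencing was analysed in 12 libraries of goat condylar cells, 3 in each of 4 groups (SLC or MLC, IL-1β alone or with LOXL2). The authors' processing notes name HISAT2 as the aligner and featureCounts as the counter, and the deposited values are whole-number counts per gene, 1 table per layer. The strand and multi-mapping settings of featureCounts are not given in the sources used here, so reads of overlapping genes and near-identical copies cannot be told apart. Gene names that occurred more than once (1783 entries) were left out of fits that join the 2 tables. Each table holds 26 names in the form of dates, which are in none of the lists used. Each comparison was tested over all genes with at least 10 counts in at least 3 of its 6 libraries (of either layer for the interaction), by edgeR 4.0.16 (TMM scaling, quasi-likelihood test, Benjamini-Hochberg adjustment, threshold 0.05) in R 4.3.3, with limma 3.58.1 beneath it. The 5 comparisons were LOXL2 against IL-1β alone in each layer, MLC against SLC in each condition, and the interaction of layer and LOXL2 over 12 libraries. CPM are TMM-scaled over all 12 libraries. With 3 against 3 libraries an exact permutation test of levels cannot go below p 0.1, so non-overlap of groups is given as a description. Total counts were 14158607 to 28931652 per library, and the lowest member count in any library was 22. The spread between libraries of a group was above counting error (chi-squared per degree of freedom 2.23 to 159). Fits were run on simulated counts with known fold changes larger than any LOXL2 effect on a member. The simulation held no library that stood apart from its group, so it cannot show how stable the calls are here. The members, the other lists (further replication genes, S phase control, and markers of mitosis, chondrocytes, fibroblasts, endothelium, leukocytes, smooth muscle and osteoblasts) and their role groups were chosen with earlier results of these data known. PCLAF, CDKN2A and CNMD of these lists were not found by name. Levels in every library are printed for members past the threshold for LOXL2 in a layer (at most 4 per role group), for MCM2, MCM5, CDC45, PCNA, POLA1, POLE, RRM1, RRM2 and TYMS, and for the members with the largest and smallest log2 fold change of each role group in a comparison of 2 groups. Genes of other lists are named from the 3 largest and 3 smallest log2 fold changes among those called. Gene IDs, coordinates and spans come from the RefSeq annotation of the goat assembly ARS1.2. Other settings tried were edgeR scaled by the size factors of DESeq2, the filter of filterByExpr, no filter, DESeq2 1.42.0 with its Wald test, a block for replicate number, a lowess trend on gene span (smoother span 0.3) removed as an offset, a fit to all 12 libraries, leaving out each library, and, chosen after seeing the data, leaving out the first LOXL2 replicate of both layers. Deviations of same-numbered libraries correlated across genes at 0.747, 0.317 and 0.309 between the SLC and MLC LOXL2 groups, so the blocked count is printed beside that comparison. SLC replicate 2 correlated more with MLC replicate 3 there, at 0.614, and the sources used here do not tie the numbers to an animal or day. Promoter sequences were not used here.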

Additional observations from a re-analysis of the deposited data

How the results depend on the processing

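Refitted values were sorted for the members whose levels are printed in every library, while counts of members called cover all 43. Between the layers with IL-1β alone, 351 of these values kept direction and side of the threshold. Of the others, 13 no longer passed and none changed sign. The count of genes was 3732 with all 12 libraries in the fit. Between the layers with LOXL2, 346 values of the members with printed levels kept both, 20 newly passed and 24 no longer passed. RFC1 changed sign, at -0.31 to 0.065 when each library was left out and 0.016 without both first LOXL2 replicates. There the count of genes was 3881 with the replicate block, 4195 with all 12 libraries in the fit, 4060 without both first LOXL2 replicates, and 1005 to 4430 when each library was left out. For LOXL2 in the SLC, 318 values of the members with printed levels kept both, 30 newly passed and 16 changed sign. Genes called were 4232 by DESeq2, 5947 with all 12 libraries in the fit and 0 to 8803 when each library was left out, and members called were 6, 11 and 0 to 20. The sign changed with the span trend removed for GMNN (-0.028), RFC1 (0.0063) and POLD3 (0.10), and with all 12 libraries in the fit for TYMS (0.0070). Leaving out each library gave -0.10 to 0.010 for MCM2, -0.16 to 0.066 for MCM5, -0.49 to 0.025 for POLE2, -0.31 to 0.054 for E2F1 and -0.080 to 0.053 for TYMS. For LOXL2 in the MLC, 293 values of the members with printed levels kept both, 15 newly passed, 30 no longer passed and 26 changed sign. Genes called were 0 with all 12 libraries in the fit and 0 to 6613 when each library was left out, and members called were 3 with the span trend removed, 0 with all 12 libraries and 0 to 16 when each was left out. The sign changed for SLBP with DESeq2 size factors (-0.00018), with DESeq2 (-0.00012) and with the span trend removed (-0.063), for PCNA, POLD3 and RRM1 with the span trend removed (-0.098, 0.039 and 0.022), and for E2F1 under the replicate block (0.0025). Leaving out each library gave -0.0054 to 0.14 for MCM2, -0.044 to 0.16 for MCM5, -0.23 to 0.051 for ORC6, -0.25 to 0.086 for CDC6, -0.0022 to 0.13 for PCNA, -0.14 to 0.32 for POLE2, -0.015 to 0.13 for TYMS, -0.16 to 0.089 for E2F1 and -0.055 to 0.063 for SLBP. The interaction called 0 to 1 genes when each library was left out and 2 without both first LOXL2 replicates, and its values for single genes are not reported. Member medians moved by less than the spread between replicates under all these alternatives, but for LOXL2 they crossed 0 when single libraries were left out, at -0.10 to 0.03 in the SLC and -0.16 to 0.06 in the MLC. Where replicate numbers pair only by name, the replicate block called 7 members and 4054 of 13806 genes for LOXL2 in the MLC, 0 members and 0 genes in the SLC (8 members and 5428 genes at an unadjusted p under 0.05), and 40 members and 5805 of 14039 genes between the layers with IL-1β alone, and same-numbered libraries had correlations from -0.32 to 0.249 and, like those of the LOXL2 groups, did not all correlate best with their own number. For each of these differences the cause was not tested. The lowest counts in a library were 22, 27 and 31, for GINS3, CDC6 and POLE2.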
